A study of Mus musculus with 24 samples.

Results

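Bone morphogenetic protein (BMP) signalling and the ID genes it activates were followed through 10 genes, the rows of the count tables whose symbol was *Bmp4*, *Bmp7*, *Bmpr1a*, *Smad6*, *Smad7*, *Msx1*, *Id1*, *Id2*, *Id3* or *Id4*. All 10 were found among the 26411 genes counted. Neural stem and progenitor cells (NSPCs), dividing cells that give rise to neurons and glia, came from the dorsal telencephalon of C57BL/6 mouse embryos at E12.5. The embryos carried both functional *Kat6a* alleles (Kat6a+/+), 1 (Kat6a+/-) or none (Kat6a-/-). *Kat6a* encodes a histone acetyltransferase, and the mutant allele lacks exons in every cell of the embryo and ends the reading frame inside the catalytic domain. RNA was taken after 3 days in culture with FGF2 (10 ng/ml) and EGF (20 ng/ml), here called proliferating. The other condition, here called differentiating, was 3 days in 1% serum without these factors, attached to poly-L-ornithine and laminin. In the study, proliferating Kat6a+/+ NSPCs floated as neurospheres and Kat6a+/- colonies were smaller and often attached. Proliferating Kat6a-/- NSPCs gave few floating colonies and attached to the dish. Each of the 6 groups held 4 libraries, which makes 24 in all, and each library came from 1 embryo. Library totals ran from 7826660 to 40838203 counts.

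BMP ligands bind receptors on the cell surface, the receptors phosphorylate SMAD1, SMAD5 and SMAD9, and these enter the nucleus with SMAD4 and switch on target genes. Among the best known targets are the ID genes, whose proteins bind E proteins and keep them from pairing with proneural transcription factors, and the inhibitory SMADs, which damp the pathway that induced them. In the developing brain BMP signalling patterns the dorsal midline and later promotes the formation of astrocytes.

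Markers of neural stem and progenitor cells were present in all 24 libraries, with a summed level of 5533 to 12149 over 7 genes in CPM (counts scaled to library size). *Kat6a* reads were counted over the whole gene, exons outside the deletion included, so that its level is a poor check of the genotype labels. It was 333 to 409 CPM in proliferating NSPCs of all genotypes. In differentiating Kat6a-/- NSPCs *Kat6a* was at 160.0, 253, 164 and 188 CPM, and replicate 2, the highest, also stood apart in several measures below. Different RNA extraction kits were used for proliferating and differentiating NSPCs, so kit and condition cannot be told apart. By Y-chromosome reads, each Kat6a+/+ group had 3 male libraries of 4 and each mutant group 1 of 4.

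The bases just before the transcription start of 4 members are shown because these 4, *Id2*, *Id3*, *Id4* and *Bmpr1a*, were all lower in differentiating Kat6a-/- NSPCs. RefSeq promoters of GRCm38.p6 were used, 250 bases before the start and none after it, written 5′ to 3′ on the strand of the gene. The table held 7 of the 10 members and had no entry for *Id1*, *Bmp7* and *Smad7*. Capitals mark GGCGCC, a palindromic GC-rich word of the kind that SMAD1 and SMAD5 bind.
Id2 (chr12:25096093-25096342, minus strand): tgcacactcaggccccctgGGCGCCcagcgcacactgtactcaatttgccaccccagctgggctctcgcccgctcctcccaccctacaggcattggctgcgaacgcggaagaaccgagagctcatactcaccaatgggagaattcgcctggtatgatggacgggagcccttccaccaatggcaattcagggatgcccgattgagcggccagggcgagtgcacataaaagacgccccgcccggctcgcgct
Id3 (chr4:136143572-136143821, plus strand): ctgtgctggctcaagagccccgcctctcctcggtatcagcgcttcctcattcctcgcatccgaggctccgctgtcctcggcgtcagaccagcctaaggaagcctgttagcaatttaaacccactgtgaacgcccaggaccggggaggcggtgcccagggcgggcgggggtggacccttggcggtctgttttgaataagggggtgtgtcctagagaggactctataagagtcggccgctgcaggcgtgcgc
Id4 (chr13:48260866-48261115, plus strand): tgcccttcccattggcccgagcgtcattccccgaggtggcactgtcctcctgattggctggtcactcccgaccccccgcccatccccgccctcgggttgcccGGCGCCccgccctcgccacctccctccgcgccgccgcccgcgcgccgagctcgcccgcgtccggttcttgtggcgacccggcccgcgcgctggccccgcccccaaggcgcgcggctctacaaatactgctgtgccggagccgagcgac
Bmpr1a (chr14:34502547-34502796, minus strand): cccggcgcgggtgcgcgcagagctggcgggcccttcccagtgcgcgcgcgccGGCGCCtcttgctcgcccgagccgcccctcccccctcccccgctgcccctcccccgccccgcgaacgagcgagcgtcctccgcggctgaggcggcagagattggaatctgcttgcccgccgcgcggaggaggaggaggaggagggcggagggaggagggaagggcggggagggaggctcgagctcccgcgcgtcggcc

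GGCGCC was found once each before *Id2* (first base 231 before the start), *Id4* (148 before) and *Bmpr1a* (198 before), and not in the windows of *Id3*, *Bmp4*, *Smad6* or *Msx1*. Of 32851 start sites of 27025 genes with a window of this length, 9.59% held the word. The GC content of the *Id2*, *Id3*, *Id4* and *Bmpr1a* windows was 62.8%, 62.8%, 75.6% and 78.8%, against a median of 52.4% over all start sites, and its part in these matches was not tested. GTCT, the other word that SMAD proteins bind, was searched together with its reverse complement AGAC. It was found 2 times before *Id3*, once before *Id2* and not in the windows of *Id4* and *Bmpr1a*, while 82.9% of all windows held it. Matches of GGCGCC and GTCT cannot overlap, since no end of one is a start of the other.

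Per length, *Id3* and *Id2* led the members in every group. In proliferating Kat6a+/+ NSPCs the mean level was 119.5 ± 19.1 RPKM (CPM per kilobase of gene length; SD, n = 4) for *Id3*, 64.1 ± 3.15 for *Id2*, 54.1 ± 2.49 for *Bmpr1a*, 28.7 ± 3.83 for *Bmp7* and 8.11 ± 0.508 for *Id1*. *Smad7* (0.412 ± 0.229 RPKM), *Id4* (0.215 ± 0.0243), *Smad6* (0.105 ± 0.0538), *Msx1* (0.0427 ± 0.0620) and *Bmp4* (0.00921 ± 0.0184) followed. The ranges of *Smad7* and *Id4* overlapped, as did those of *Smad6* and *Msx1* and those of *Msx1* and *Bmp4*, so the order within each of these pairs is within the spread between libraries. *Smad6* lay above *Bmp4* in every library. In differentiating Kat6a+/+ NSPCs *Id3* (552 ± 49.3 RPKM) and *Id2* (477 ± 55.1), whose ranges overlapped, were followed by *Id1* (171 ± 10.7), *Bmpr1a* (128 ± 7.14), *Id4* (61.1 ± 14.8), *Smad6* (14.4 ± 2.42), *Smad7* (4.88 ± 0.794) and *Bmp7* (2.24 ± 0.517). *Msx1* (0.371 ± 0.194) and *Bmp4* (0.0134 ± 0.0267) were again last.

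The comparison of conditions in Kat6a+/+ NSPCs asked how the members differ between the cultures. Growth factors, serum, attachment and extraction kit changed together and cannot be told apart. All 8 members that could be tested changed, 7 higher and 1 lower in differentiating NSPCs (limma-voom, 24 libraries, false discovery rate (FDR) under 0.05). Over all 13590 genes tested, 72.9% were called, 36.7% higher and 36.2% lower. The median log2 fold-change of the 8 members was 3.30, against 0.02 over all genes tested. *Bmp4* and *Msx1* did not pass the filter on low counts when all libraries were used, and *Smad6* passed it in differentiating NSPCs and over all 24 libraries but not among the proliferating ones.

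Of the ligands, *Bmp7* (Entrez 12162, chr2:172709805-172782410 on mm39, minus strand) fell, and *Bmp4* (Entrez 12159, chr14:46620250-46636745, minus strand) was barely detected. *Bmp7* was at 95.6, 91.2, 117 and 118 CPM in proliferating and at 7.49, 10.8, 6.27 and 8.38 CPM in differentiating Kat6a+/+ NSPCs. The groups did not overlap, and the level dropped by 3.70 on the log2 scale (standard error (SE) 0.29, limma FDR 5.8e-10). For *Bmp4* a total of 3 reads was counted in the 4 proliferating Kat6a+/+ libraries and 2 in the 4 differentiating ones. In proliferating Kat6a+/- and Kat6a-/- NSPCs no *Bmp4* read was counted, which allows up to 0.0668 and 0.0839 CPM (3 counts over each group, counting error only). *Msx1* (Entrez 17701, chr5:37977829-37981928, minus strand), a homeobox target of BMP signalling in dorsal midline tissue, had 5 reads in proliferating and 56 in differentiating Kat6a+/+ NSPCs. Its differentiating levels were 1.21, 0.546, 0.772 and 0.335 CPM. *Msx1* passed the filter in 21 of the 24 fits that left out 1 library, and was called higher in differentiating NSPCs in all 21.

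*Bmpr1a* (Entrez 12166, chr14:34132687-34225379, minus strand), a type I receptor for BMP ligands, was at 296, 279.7, 313 and 297 CPM in proliferating and at 676, 658, 734 and 732 CPM in differentiating Kat6a+/+ NSPCs. It rose 2.36-fold (log2 fold-change 1.24, SE 0.12, limma FDR 1.09e-08) with no overlap between the groups.

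Both inhibitory SMADs rose from low levels. *Smad6* (Entrez 17130, chr9:63860341-63929793, minus strand), which keeps SMAD1 and SMAD5 from signalling, had 5, 6, 5 and 2 reads in the proliferating Kat6a+/+ libraries, or 0.126 to 0.503 CPM, and 33.0, 49.3, 46.9 and 41.4 CPM in the differentiating ones. The log2 fold-change was 7.31 (SE 0.53, limma FDR 1.54e-10). *Smad7* (Entrez 17131), which also restrains the related transforming growth factor-β pathway, was at 1.80, 2.59, 0.402 and 2.54 CPM in proliferating and at 18.4, 25.1, 24.4 and 18.9 CPM in differentiating NSPCs, with a log2 fold-change of 3.70 (SE 0.61, limma FDR 1.42e-05). Neither gene's groups overlapped.

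All 4 ID genes rose, *Id4* the most and *Id3* the least in fold. *Id1* (Entrez 15901, chr2:152566218-152579544, plus strand) went from 10.0, 8.66, 9.66 and 9.26 CPM to 194, 183, 209 and 207 CPM, a log2 fold-change of 4.37 (SE 0.24, limma FDR 3.41e-12). *Id2* (Entrez 15902, chr12:25143798-25147282, minus strand) went from 79.7, 76.8, 84.7 and 85.1 CPM to 611, 514, 685 and 616 CPM, a log2 fold-change of 2.89 (SE 0.19, limma FDR 3e-11). Neither gene's groups overlapped. *Id3* (Entrez 15903, chr4:135870808-135873066, plus strand) went from 109.7, 90.2, 124 and 132 CPM to 494, 499, 517 and 595 CPM, a log2 fold-change of 2.22 (SE 0.14, limma FDR 2.31e-11). *Id4* (Entrez 15904, chr13:48414558-48419502, plus strand) went from 0.784, 0.962, 0.905 and 0.761 CPM, or 6 to 31 reads, to 258, 156, 264 and 289 CPM, a log2 fold-change of 8.08 (SE 1.11, limma FDR 1.41e-06). For *Id3* and *Id4*, too, no proliferating library reached the level of a differentiating one.

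**Figure D1:**
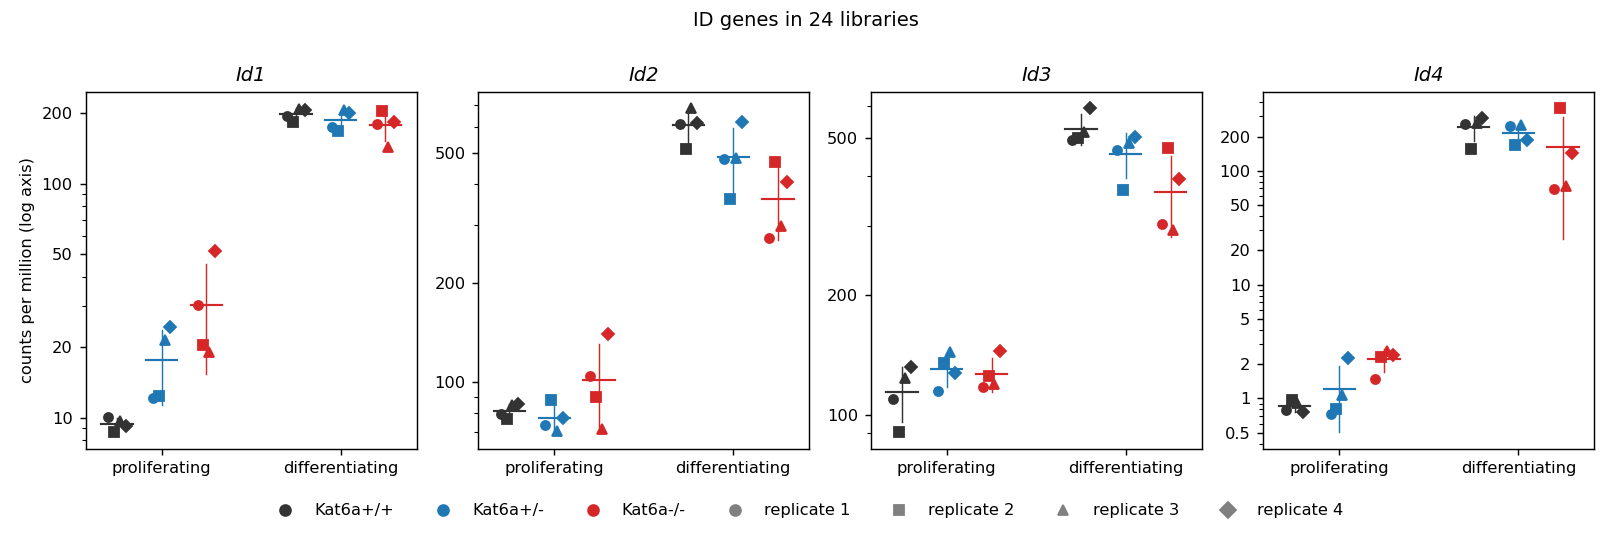
CPM of the 4 ID genes on log axes in all 24 libraries, 1 panel per gene, with genotypes in colour and replicates by symbol. Horizontal lines are group means and vertical lines 1 SD (n = 4). All 4 genes are higher in differentiating NSPCs, *Id1* and *Id4* of proliferating Kat6a-/- NSPCs lie above Kat6a+/+, and differentiating Kat6a-/- replicate 2 (red square) is the highest of its group for every ID gene.

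The comparison of genotypes in proliferating NSPCs asked what loss of *Kat6a* does to the members while growth factors are present. Of 7 members tested, 2 were higher in Kat6a-/- than in Kat6a+/+ NSPCs and none was lower, the 2 being *Id1* and *Id4*. Of these, *Id4* passed the filter on low counts through mutant libraries, which in part sets its direction. Over all 12276 genes tested, 30.0% were called, 16.2% higher and 13.8% lower. The median log2 fold-change was 0.78 over the 4 ID genes, 0.14 over the 7 members and −0.00 over all genes tested. In bulk RNA, more cells of a type and more RNA per cell cannot be told apart.

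*Id1* was at 10.0, 8.66, 9.66 and 9.26 CPM in Kat6a+/+ NSPCs. The level was 12.1, 12.4, 21.4 and 24.3 CPM in Kat6a+/- libraries, and 30.5, 20.4, 19.2 and 51.7 CPM in Kat6a-/- libraries. All 8 mutant libraries lay above all Kat6a+/+ libraries, while the 2 mutant groups overlapped. How many of all genes tested separate the genotypes in this way was not counted. Between Kat6a-/- and Kat6a+/+ NSPCs the log2 fold-change was 1.50 (SE 0.29, limma FDR 0.00286), or 2.83-fold. Within the 2 litters that held both genotypes, the log2 ratio of mean CPM was 1.40 (litter 4633) and 1.05 (litter 4746). *Id4* was at 0.784, 0.962, 0.905 and 0.761 CPM in Kat6a+/+ NSPCs. In Kat6a+/- NSPCs it stood at 0.724, 0.802, 1.06 and 2.25 CPM, against 1.47, 2.32, 2.63 and 2.39 CPM in Kat6a-/- NSPCs. Kat6a-/- did not overlap Kat6a+/+, but these values rest on 13 to 24 reads per Kat6a-/- library and 6 to 31 per Kat6a+/+ library. At such Kat6a+/+ levels *Id4* passed the filter through mutant libraries, so its direction is in part set by the filter. The log2 fold-change was 1.30 (SE 0.31, limma FDR 0.0069), with 1.07 and 1.79 within the same 2 litters. With litter as a fixed term *Id4* was no longer called (1.06, limma FDR 0.109).

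The other ID genes did not pass the test. *Id2* was at 104, 89.7, 71.7 and 140.0 CPM in Kat6a-/- NSPCs against 76.8 to 85.1 CPM in Kat6a+/+ (log2 fold-change 0.27, SE 0.15, limma FDR 0.197). Of the 4 Kat6a-/- libraries 3 were above and 1 was below the whole Kat6a+/+ range. *Id3*, at 118, 125, 119.6 and 145 CPM against 90.2 to 132 CPM, gave 0.14 (SE 0.11, limma FDR 0.336). Within litters 4633 and 4746 the log2 ratio was 0.19 and −0.25 for *Id2*, and −0.03 and −0.14 for *Id3*. Markers of some cell types differed between the same libraries. Of 5 astrocyte genes 4 were tested, of which 3 were higher in Kat6a-/- NSPCs and 1 had a negative log2 fold-change that was not called. Their summed level was 607 to 762 CPM in Kat6a+/+, 653 to 1443 in Kat6a+/- and 1031 to 1811 in Kat6a-/- NSPCs. Kat6a-/- replicate 4, the library with the most *Id1*, had the highest astrocyte sum, and Kat6a+/- replicate 4, with the most *Id1* and *Id4* of its group, had 1443 CPM. The summed level of 4 telencephalon genes was 93.6 to 109 CPM in Kat6a-/- and 154 to 187 CPM in Kat6a+/+ NSPCs, without overlap, and of 3 genes tested 2 were lower and 1 higher. Of 4 neuron genes tested 1 was higher and 2 were lower. No tested gene of the oligodendrocyte lineage (3 of 4 listed were tested) or endothelium (2 of 5) was called (limma). The same held for meninges and mesenchyme (1 of 7 tested) and pericytes (1 of 3), so few genes stand behind these lists. The part of these cell types in the differences was not tested.

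Of the members upstream of the ID genes, *Bmp7*, *Bmpr1a* and *Smad7* did not pass the test in proliferating NSPCs. *Bmpr1a* was at 296, 255, 239.9 and 232 CPM in Kat6a-/- NSPCs, 3 of them below the Kat6a+/+ range of 279.7 to 313 CPM, and did not pass the test (log2 fold-change −0.20, SE 0.09, limma FDR 0.0921). *Bmp7* was at 87.9, 105, 99.98 and 40.3 CPM in Kat6a-/- and at 89.1, 83.2, 87.6 and 62.0 CPM in Kat6a+/- NSPCs. All Kat6a+/- libraries lay below the Kat6a+/+ range of 91.2 to 118 CPM, yet neither comparison with Kat6a+/+ passed the test (Kat6a-/- −0.37, SE 0.21, limma FDR 0.186, and Kat6a+/- −0.31, SE 0.20, limma FDR 0.765). *Smad7*, at 0.402 to 2.59 CPM in Kat6a+/+ and 1.16 to 1.70 CPM in Kat6a-/- NSPCs, gave 0.06 with an SE of 0.50 (limma FDR 0.941), too wide to bound a change of modest size. *Smad6* was at 0.113 to 0.598 CPM in Kat6a-/- NSPCs, from 1 to 6 reads per library, and was not tested.

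**Figure D2:**
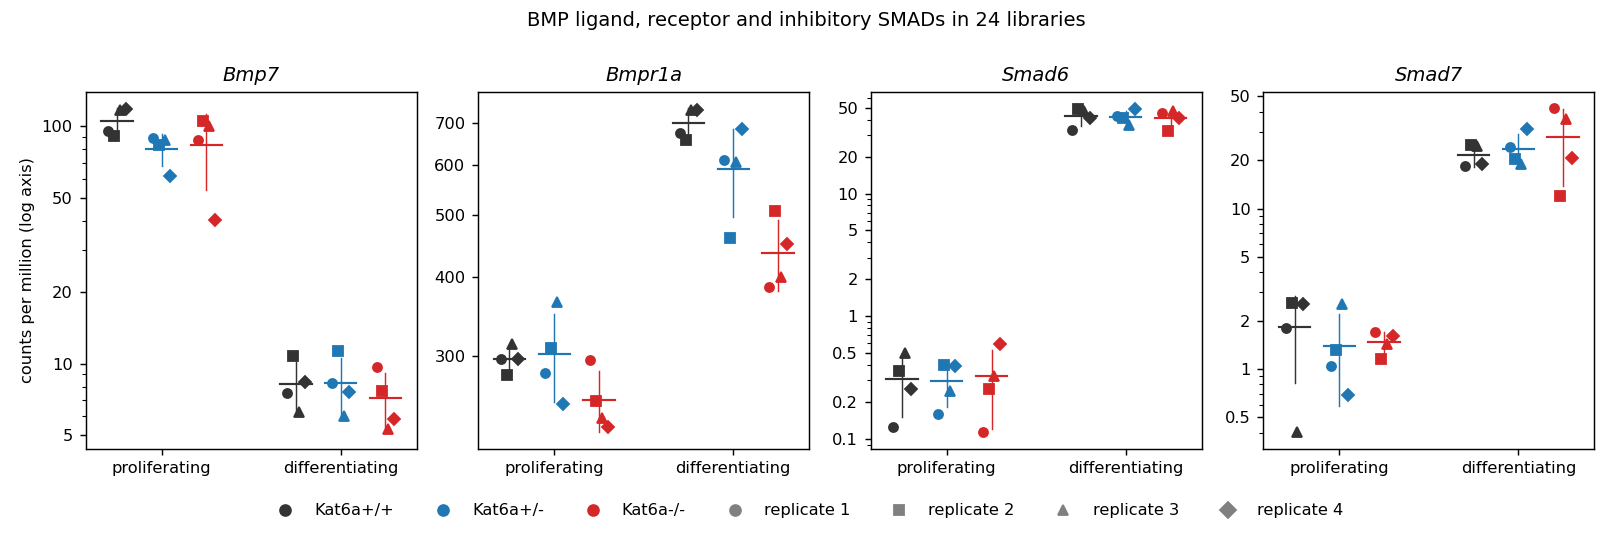
CPM of *Bmp7*, *Bmpr1a*, *Smad6* and *Smad7* on log axes in all 24 libraries, drawn as for the ID genes (lines are group means and 1 SD, n = 4). *Bmp7* is lower and the other 3 are higher in differentiating NSPCs, and the differentiating Kat6a-/- libraries lie below Kat6a+/+ for *Bmpr1a* and are spread on both sides of it for *Smad7*.

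In differentiating NSPCs the ID genes were lower in Kat6a-/- NSPCs, whereas *Id1* and *Id4* were higher when proliferating and *Id2* and *Id3* were not called there. Of 8 members tested, 5 were lower in Kat6a-/- than in Kat6a+/+ NSPCs (*Id1*, *Id2*, *Id3*, *Id4* and *Bmpr1a*), 1 was higher (*Smad7*), and *Bmp7* and *Smad6* were not called. This was in limma-trend with library quality weights, where 54.4% of all 13339 genes tested were called, 26.7% higher and 27.7% lower. The median log2 fold-change was −0.87 over the 4 ID genes, −0.54 over the 8 members and −0.02 over all genes tested. The weights leaned on 1 library, since 69.0% of the Kat6a-/- weight fell on replicate 3 and 4.22% on replicate 2. Without weights, and with the quasi-likelihood test of edgeR or with DESeq2, 3 members were called, *Id2*, *Id3* and *Bmpr1a*, all lower. These are the 3 members whose Kat6a-/- and Kat6a+/+ libraries did not overlap. The share of all genes tested without overlap was not counted, so this says nothing particular to the members.

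*Id2* was at 611, 514, 685 and 616 CPM in Kat6a+/+ NSPCs. Kat6a+/- libraries held 478, 361, 482 and 622 CPM, and Kat6a-/- libraries held 275, 467, 299 and 408 CPM. Every Kat6a-/- library was below every Kat6a+/+ library, and the Kat6a+/- libraries overlapped both groups. The log2 fold-change between Kat6a-/- and Kat6a+/+ was −1.01 (SE 0.12, limma FDR 3.46e-05), and the log2 ratio within litters was −0.88 and −1.05. Leaving out Kat6a-/- replicate 1 or 3 ended the call (−0.72, limma FDR 0.0716, and −0.68, limma FDR 0.122). *Id3* was at 494, 499, 517 and 595 CPM in Kat6a+/+ NSPCs. The level was 467, 369, 484 and 502 CPM in Kat6a+/- libraries, and 303, 471, 293 and 395 CPM in Kat6a-/- libraries. Every Kat6a-/- library was below every Kat6a+/+ library, replicates 1 and 3 the furthest and replicate 2 the nearest. The log2 fold-change was −0.73 (SE 0.10, limma FDR 7.07e-05), with −0.42 and −1.02 within litters. It was −0.45 (limma FDR 0.149) without Kat6a-/- replicate 1 and −0.35 (limma FDR 0.280) without replicate 3, and with a fixed litter term it was −0.80 but not called (limma FDR 0.0506).

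*Id4* divided the Kat6a-/- libraries. It was at 258, 156, 264 and 289 CPM in Kat6a+/+ NSPCs. In Kat6a+/- NSPCs it stood at 248, 169.8, 254 and 187 CPM, against 68.5, 357, 72.9 and 143 CPM in Kat6a-/- NSPCs. Kat6a-/- replicate 2 was above all other differentiating libraries, and the other 3 were below all of them. The weighted log2 fold-change was −1.61 (SE 0.24, limma FDR 1.49e-04) and −1.78 without Kat6a-/- replicate 2. With equal weights it was −0.90 (limma FDR 0.158), and edgeR gave −0.60 (FDR 0.358). Without Kat6a-/- replicate 1 or 3 it was −0.60 or −0.38, not called (limma FDR 0.456 and 0.672). Within litter 4633, which holds Kat6a-/- replicates 1 and 2, the log2 ratio was −0.31, and within litter 4746 it was −1.99.

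*Id1* changed least of the ID genes. It was at 194, 183, 209 and 207 CPM in Kat6a+/+ NSPCs. Kat6a+/- libraries held 175, 168, 207 and 201 CPM, and Kat6a-/- libraries held 180.4, 205, 144 and 184 CPM. Only 2 of 4 Kat6a-/- libraries were below the Kat6a+/+ range. The weighted log2 fold-change was −0.36 (SE 0.09, limma FDR 0.00406), but −0.16 (limma FDR 0.308) with equal weights. It was −0.20 (limma FDR 0.437) without Kat6a-/- replicate 1 and −0.03 (limma FDR 0.922) without replicate 3.

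*Bmpr1a* was at 676, 658, 734 and 732 CPM in Kat6a+/+ NSPCs. The level was 613, 461, 607 and 685 CPM in Kat6a+/- libraries, and 385, 508, 399.6 and 449.9 CPM in Kat6a-/- libraries. All 4 Kat6a-/- libraries were below Kat6a+/+, replicate 2 included, and the Kat6a+/- libraries overlapped both. The log2 fold-change was −0.79 (SE 0.08, limma FDR 1.4e-05), a 1.72-fold difference, with −0.72 and −0.87 within litters. It was −0.69 (limma FDR 0.00286) with equal weights and −0.60 (limma FDR 0.0610) without Kat6a-/- replicate 3, the only library whose removal ended this call.

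Of the inhibitory SMADs, *Smad7* was at 18.4, 25.1, 24.4 and 18.9 CPM in Kat6a+/+ NSPCs. In Kat6a+/- NSPCs it stood at 24.1, 20.3, 19.1 and 31.2 CPM, against 42.4, 11.997, 35.9 and 20.6 CPM in Kat6a-/- NSPCs. Kat6a-/- replicates 1 and 3 were the highest of all 12 libraries and replicate 2 the lowest. The weighted log2 fold-change was 0.67 (SE 0.20, limma FDR 0.0134), but it was 0.21 (limma FDR 0.696) with equal weights and turned to −0.05 (limma FDR 0.956) without Kat6a-/- replicate 1 and −0.14 (limma FDR 0.876) without replicate 3. Leaving out Kat6a+/+ replicate 1 also ended the call (0.53, limma FDR 0.0816). *Smad6*, at 44.9, 32.2, 47.4 and 41.1 CPM in Kat6a-/- and 33.0 to 49.3 CPM in Kat6a+/+ NSPCs, was not called (0.19, SE 0.14, limma FDR 0.255). Leaving out Kat6a-/- replicate 2 gave a call (0.23, limma FDR 0.0462), and its sign turned without replicate 1 (−0.05) or 3 (−0.12).

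Both ligands among the members were low in every differentiating library. *Bmp7*, at 9.70, 7.70, 5.30 and 5.81 CPM in Kat6a-/- and 6.27 to 10.8 CPM in Kat6a+/+ NSPCs, was not called (−0.29, SE 0.20, limma FDR 0.229), but was called without Kat6a-/- replicate 2 (−0.46, limma FDR 0.0134) and turned to 0.12 (limma FDR 0.889) without replicate 3. *Bmp4* had 2, 1, 13 and 7 reads in the Kat6a-/- libraries, a total of 23, against 4 reads in the 4 Kat6a+/- and 2 in the 4 Kat6a+/+ libraries. At most 0.783 CPM, these counts were too low for the filter. With no filter *Bmp4* was called higher in Kat6a-/- than in Kat6a+/+ NSPCs (1.88, limma FDR 0.0067), a call that rests on these few reads. Kat6a-/- replicate 3, with 13 of the 23, also carried 69.0% of the Kat6a-/- weight in the main fit. *Msx1*, at 0.619, 0.265, 0.362 and 0.129 CPM in Kat6a-/- and 0.335 to 1.21 CPM in Kat6a+/+ NSPCs, overlapped between genotypes and did not pass the filter with all libraries. It passed in 9 of the 12 fits without 1 library and was called lower in 4 of them.

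Most marker lists also differed across the differentiating libraries. The summed level of 7 genes of meninges and mesenchyme was 263, 33.0, 231 and 159 CPM in Kat6a-/- replicates 1 to 4, 23.6 to 57.9 CPM in Kat6a+/+ and 40.6 to 114 CPM in Kat6a+/- NSPCs, with *Lum* at 0 in both mutant groups. Kat6a-/- replicates 1 and 3, the lowest in *Id2*, *Id3* and *Bmpr1a*, were thus the highest in this sum. The summed level of 5 astrocyte genes was 1297, 4665, 1454 and 2545 CPM in Kat6a-/- replicates 1 to 4 and 1740 to 2488 CPM in Kat6a+/+ NSPCs, so that replicate 2 was the highest in *Id4* and in the astrocyte sum. This list was divided, with 1 of the 5 genes called higher and 3 lower than in Kat6a+/+ NSPCs (median log2 fold-change −0.80, limma). For 3 genes of dividing cells the sum was 29.5 to 139 CPM in Kat6a-/- NSPCs, below the 424 to 732 CPM of Kat6a+/- and the 391 to 684 CPM of Kat6a+/+ NSPCs. Pericyte genes (3 listed) summed to 137, 38.6, 152 and 74.9 CPM in Kat6a-/- replicates 1 to 4 against 29.4 to 49.8 CPM in Kat6a+/+ NSPCs, again highest in replicates 1 and 3. The Kat6a-/- sums were below Kat6a+/+ without overlap for telencephalon (148 to 196 against 246 to 275 CPM), oligodendrocyte lineage (87.1 to 181 against 213 to 332 CPM) and endothelium (10.6 to 36.8 against 46.4 to 72.9 CPM). The sum was above it for neural stem and progenitor cells (8491 to 12149 against 6441 to 8060 CPM), but the genes of this list were divided. Of these 7 genes 3 were called higher and 3 lower than in Kat6a+/+ NSPCs (median log2 fold-change −0.07, limma). Against Kat6a+/- NSPCs 0 were called higher and 4 lower. Sums for neurons and for cortical hem and choroid plexus overlapped, and microglial genes summed to at most 0.783 CPM. The part of these cell types in the differences between genotypes was not tested.

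**Figure D3:**
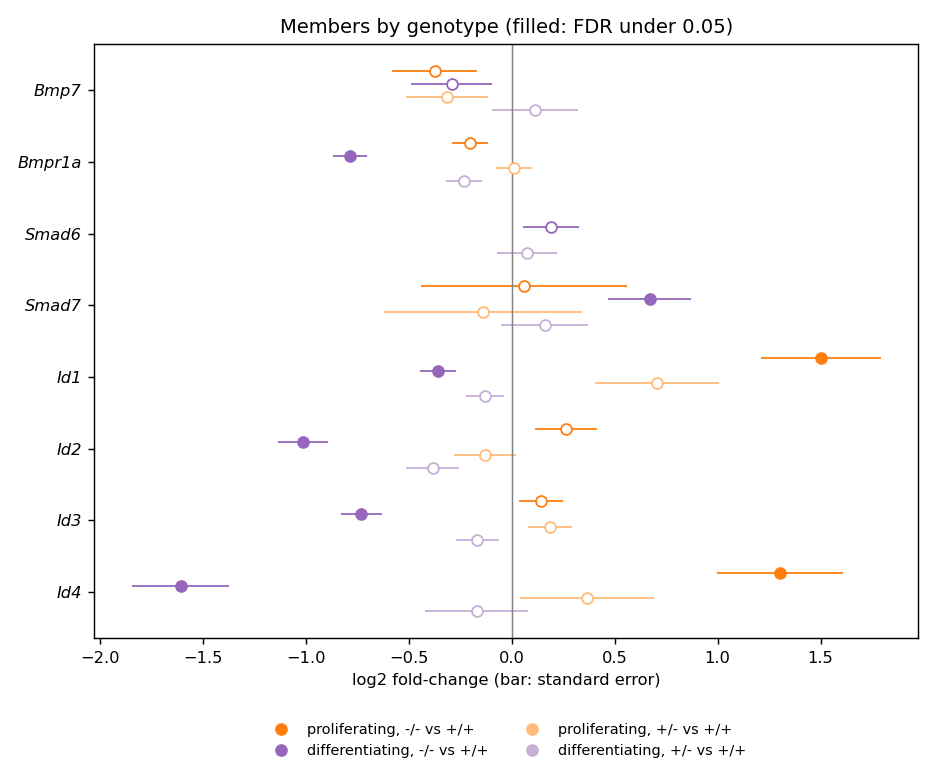
Log2 fold-change of 8 members against Kat6a+/+ NSPCs, for Kat6a-/- and Kat6a+/- in each condition, with the standard error as a bar and filled symbols for an FDR under 0.05 (limma). *Smad6* has no value in proliferating NSPCs. The ID genes of Kat6a-/- NSPCs lie right of 0 when proliferating, where only *Id1* and *Id4* are filled, and left of 0 when differentiating. No Kat6a+/- symbol is filled.

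Whether loss of *Kat6a* acted differently in the 2 conditions was tested as an interaction over all 24 libraries. The effect of losing both alleles was lower in differentiating than in proliferating NSPCs for 3 of 8 members and higher for none. Over all 13590 genes tested, 13.9% were called, 6.36% higher and 7.58% lower. The 3 were *Id1* (difference of log2 fold-changes −1.75, SE 0.32, limma FDR 0.00115), *Id2* (−1.05, SE 0.26, limma FDR 0.0098) and *Id3* (−0.72, SE 0.20, limma FDR 0.0188). Each was called in all 24 fits that left out 1 library and in all 10 other settings tried. *Id4* had a difference of −2.24 with an SE of 1.52 (limma FDR 0.343), and *Bmpr1a* one of −0.47 (SE 0.17, limma FDR 0.0643). Both were called with DESeq2 (*Id4* −1.98, FDR 0.0103, and *Bmpr1a* −0.48, FDR 0.0320) and with quality weights in voom (*Id4* −2.75, limma FDR 0.0116, and *Bmpr1a* −0.59, limma FDR 0.00219).

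For 6 embryos the labels named a library in each condition, so the rise on differentiation could be read within an embryo, as a description. Replicate 2 of Kat6a+/+ had the same embryo number in both conditions under litters labelled 4364 and 4346, and was not counted as 1 embryo because the labels differ. The log2 ratio of differentiating to proliferating *Id1* was 4.27 and 4.44 in 2 Kat6a+/+ embryos, 3.03 in 1 Kat6a+/- embryo and 3.33, 2.91 and 1.83 in 3 Kat6a-/- embryos. All Kat6a-/- embryos were below both Kat6a+/+ embryos. The same held for *Id2* (2.94 and 3.02 in Kat6a+/+, 2.38, 2.06 and 1.54 in Kat6a-/-), *Id3* (2.17 and 2.06 against 1.92, 1.30 and 1.45) and *Id4* (8.36 and 8.19 against 7.26, 4.79 and 5.90). It was also so for *Bmpr1a* (1.19 and 1.23 against 0.99, 0.74 and 0.96), and the share of all genes with this order was not counted. For *Bmp7* the ratio was −3.68 and −4.22 in Kat6a+/+ and −3.77, −4.24 and −2.79 in Kat6a-/- embryos, with overlap. The ratios of *Smad6* and *Smad7* overlapped as well.

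No member was called between Kat6a+/- and Kat6a+/+ NSPCs, and 0 of all genes tested were (0%), in either condition or in the interaction (limma). At an unadjusted p under 0.05 were 1 of 7 members in proliferating NSPCs, *Id1* (log2 fold-change 0.71, SE 0.30, limma FDR 0.637), and 2 of 8 in differentiating NSPCs, *Id2* (−0.38, SE 0.13, limma FDR 0.248) and *Bmpr1a* (−0.23, SE 0.09, limma FDR 0.275). edgeR and DESeq2 called 0 members in both conditions. Over all genes edgeR called 0, and DESeq2 called 28 in proliferating and 8 in differentiating NSPCs. Without 1 library, limma called up to 6 genes in proliferating NSPCs, and in differentiating NSPCs 301 without Kat6a+/- replicate 3 and 146 without Kat6a+/+ replicate 2, but no member. In the interaction *Id1* (−0.89, SE 0.34) and *Id3* (−0.42, SE 0.20) had an unadjusted p under 0.05 (limma). The mean CPM of Kat6a+/- NSPCs lay between those of the other genotypes for *Id1*, *Id4* and *Msx1* of the 10 members in proliferating NSPCs, and for every member except *Bmp7* in differentiating NSPCs.

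Between Kat6a-/- and Kat6a+/- NSPCs, 4 of 8 members were lower when differentiating, against 2462 of 13339 genes lower and 37.5% called in either direction. These were *Id4* (log2 fold-change −1.44, SE 0.28, limma FDR 0.00241), *Id2* (−0.63, SE 0.14, limma FDR 0.00556), *Id3* (−0.56, SE 0.11, limma FDR 0.00304) and *Bmpr1a* (−0.55, SE 0.10, limma FDR 0.00139). Without Kat6a-/- replicate 1 or 3 none of the 4 was called, and with equal weights or with edgeR or DESeq2 only *Bmpr1a* was. When proliferating, no member was called by limma, against 14.8% of all genes. At an unadjusted p under 0.05 were 4 of 7, *Id1* (0.80, limma FDR 0.0667), *Id4* (0.94, limma FDR 0.0564), *Id2* (0.39, limma FDR 0.0862) and *Bmpr1a* (−0.22, limma FDR 0.0945), and edgeR and DESeq2 called 0.

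**Figure D4:**
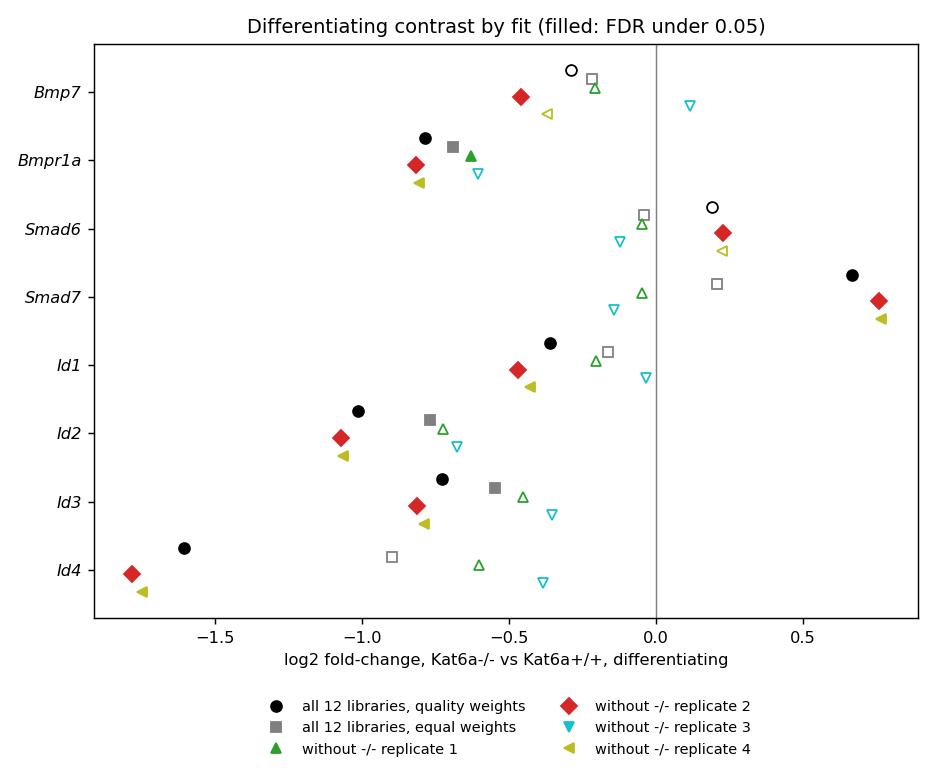
Log2 fold-change of 8 members between Kat6a-/- and Kat6a+/+ differentiating NSPCs with quality weights, with equal weights and without each Kat6a-/- library, filled where the FDR is under 0.05 (limma). Leaving out replicate 1 or 3 moves most members towards 0 and unfills all but *Bmpr1a* without replicate 1, while leaving out replicate 2 or 4 moves most of them away from 0.

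Around the members, 50 other genes of the pathway were read from a list sorted by role. Between Kat6a-/- and Kat6a+/+ NSPCs, 7 of the 34 tested were higher and 7 lower when proliferating, and 16 of the 36 tested were higher and 11 lower when differentiating. Over all genes tested, 30.0% were called when proliferating and 54.4% when differentiating. Of 9 ligands listed only 2 passed the filter on low counts in differentiating NSPCs, and both were higher in Kat6a-/- NSPCs. In differentiating NSPCs *Bmp6* was at 9.52, 17.04, 7.29 and 6.71 CPM in Kat6a+/+ NSPCs. Kat6a+/- libraries held 18.9, 87.3, 16.1 and 7.13 CPM, and Kat6a-/- libraries held 59.7, 30.0, 63.9 and 44.2 CPM. All Kat6a-/- libraries were above all Kat6a+/+ libraries (log2 fold-change 2.74, SE 0.39, limma FDR 1.19e-04). *Bmp2* was lower still, at 0.0546 to 0.241 CPM in Kat6a+/+ NSPCs against 1.10, 1.27, 2.23 and 1.87 CPM in Kat6a-/- NSPCs, and was also higher (2.76, SE 0.33, limma FDR 3.14e-05). At such Kat6a+/+ levels *Bmp2* passed the filter through mutant libraries, so its direction is in part set by the filter.

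Among receptors, *Acvr2b*, a type II receptor for activins and BMP ligands, was lower in Kat6a-/- NSPCs in both conditions, without overlap. It was at 59.4 to 71.2 CPM in Kat6a+/+ NSPCs against 31.4, 35.7, 35.5 and 28.4 CPM in Kat6a-/- NSPCs when proliferating (log2 fold-change −0.90, SE 0.13, limma FDR 2.75e-04). When differentiating it was at 23.2 to 39.5 CPM and at 9.84, 11.9, 11.3 and 15.0 CPM (−1.498, SE 0.17, limma FDR 2.15e-05). *Bmpr2*, the BMP type II receptor, was higher when proliferating (0.35, SE 0.08, limma FDR 0.00558). In differentiating NSPCs the type I receptors went apart, *Bmpr1b* lower (−1.13, SE 0.25, limma FDR 0.00255) like *Bmpr1a*, and *Acvr1* higher (1.06, SE 0.13, limma FDR 3.48e-05). *Acvr1* was at 57.3, 23.6, 51.7 and 33.0 CPM in Kat6a-/- and 21.2 to 24.7 CPM in Kat6a+/+ NSPCs, so that Kat6a-/- replicate 2 lay among the Kat6a+/+ libraries.

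All 4 signal transducers tested were lower in differentiating Kat6a-/- NSPCs, namely *Smad9* (log2 fold-change −0.70), *Smad5* (−0.46), *Smad4* (−0.45) and *Smad1* (−0.29). Of all genes tested 27.7% were called lower in this comparison. The limma FDR of the 4 ran from 4.28e-05 (*Smad4*) to 0.00997 (*Smad1*). When proliferating, *Smad5* was higher (0.38, SE 0.09, limma FDR 0.00662) and *Smad4* (−0.26) and *Smad1* (−0.22) were lower. All 3 E proteins, the partners that ID proteins bind, were lower in differentiating Kat6a-/- NSPCs, *Tcf12* by 1.00, *Tcf3* by 0.74 and *Tcf4* by 0.37 on the log2 scale. In proliferating NSPCs *Tcf3* (−0.32, limma FDR 0.00618) and *Tcf4* (−0.21, limma FDR 0.0222) were lower as well.

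Of the extracellular antagonists, *Nog*, which encodes noggin, a protein that binds BMP ligands, rose with differentiation in Kat6a+/+ NSPCs from 0.101 to 0.601 CPM to 72.6 to 144 CPM. In differentiating Kat6a-/- NSPCs *Nog* was at 54.8, 28.2, 38.4 and 35.1 CPM, all below Kat6a+/+ (log2 fold-change −1.36, SE 0.25, limma FDR 6.79e-04). *Fst*, which encodes follistatin, was lower in proliferating Kat6a-/- NSPCs (−1.95, SE 0.55, limma FDR 0.0179) and higher in differentiating ones (2.30, SE 0.34, limma FDR 1.60e-04). Its differentiating levels were 67.2, 12.53, 38.9 and 12.1 CPM in Kat6a-/- and 5.67 to 14.5 CPM in Kat6a+/+ NSPCs, so replicates 1 and 3 alone were outside. *Bmper*, a BMP-binding protein, was at 24.2, 25.8, 21.6 and 28.3 CPM in proliferating Kat6a-/- and 7.94 to 18.7 CPM in Kat6a+/+ NSPCs (1.23, SE 0.20, limma FDR 8.48e-04). Inside the cell, *Skil*, which encodes a SMAD corepressor, was higher in Kat6a-/- NSPCs when proliferating (0.59, SE 0.09, limma FDR 4.52e-04) and differentiating (0.69, SE 0.25, limma FDR 0.0366), in the latter with 95.6, 16.3, 101.3 and 53.1 CPM, so that replicate 2 was again the lowest. *Atoh8*, another target of BMP signalling, was at 3.96, 0.902, 0.986 and 9.27 CPM in proliferating Kat6a-/- NSPCs and 0.381 to 0.604 CPM in Kat6a+/+ (2.04, SE 0.67, limma FDR 0.0350). Like *Bmp2* when differentiating, *Atoh8* passed the filter here through mutant libraries, so its direction is in part set by the filter. The 2 libraries with the most *Atoh8*, replicates 1 and 4, were also those with the most *Id1*. *Hey1*, the other target that could be tested, was lower when proliferating (−0.55, SE 0.18, limma FDR 0.0386). When differentiating, *Atoh8* was higher (0.45, SE 0.15, limma FDR 0.0203), unlike the ID genes.

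**Figure D5:**
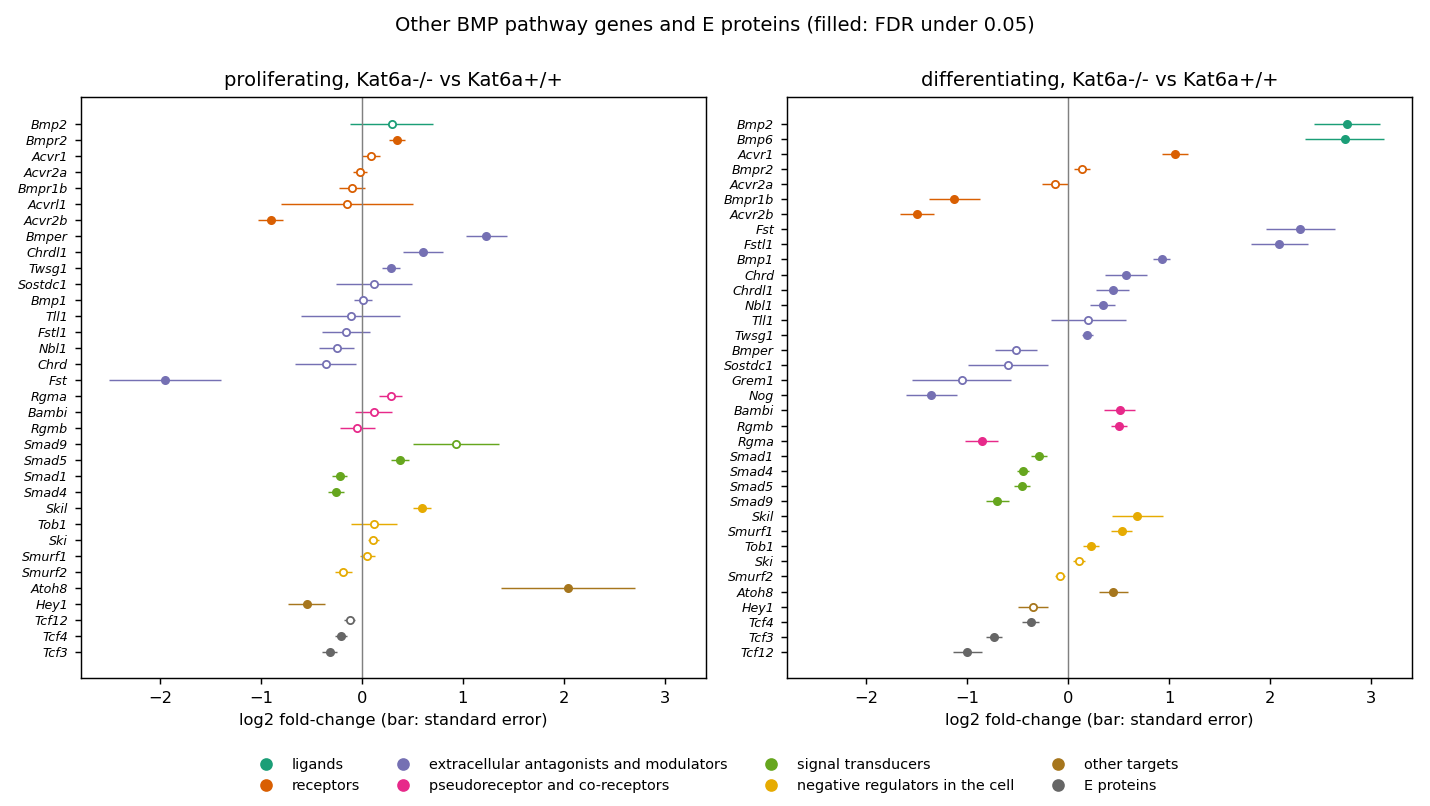
Log2 fold-change (standard error as a bar) between Kat6a-/- and Kat6a+/+ NSPCs of the other pathway genes that could be tested, 34 in proliferating and 36 in differentiating NSPCs, coloured by role and filled where the FDR is under 0.05 (limma). In differentiating NSPCs both ligands that passed the filter lie right of 0, and all 4 signal transducers and all 3 E proteins lie left of it.

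Patterns over the 24 libraries were compared by the root mean square difference of log2 CPM after each gene's mean was taken off, among 12418 genes with mean log2 CPM above 0. The gene most like *Id1* was *Kank4* (0.30), that most like *Id2* was *Tbc1d2b* (0.20), that most like *Id3* was *Pals1* (0.18) and that most like *Id4* was *Crb2* (0.55). For *Bmpr1a* it was *Cstpp1* (0.17), for *Bmp7* *Mthfd1l* (0.38), for *Smad6* *Kif26b* (0.41) and for *Smad7* *D630003M21Rik* (0.50). The members' own patterns had a root mean square of 0.56 (*Bmpr1a*) to 3.59 (*Id4*), most of it the difference between conditions that all these genes share. No member was among the 3 nearest genes of another member.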

How the data were processed

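RNA sequencing of cultured NSPCs was analysed from gene counts, 1 table for each of 24 libraries. The authors deposited counts that they had made by aligning stranded poly(A) libraries to mm39 with Rsubread and assigning reads to RefSeq genes with featureCounts. Versions and the strand setting are not given in the sources used here. Libraries were grouped by the genotype and condition in their labels. Of the 26411 genes, 21030 protein-coding genes entered the fits, 52 genes without a biotype were left out, and *Xist* and Y-specific genes were dropped, as in the study's methods. Genes were filtered with filterByExpr and scaled with TMM (edgeR 4.0.16, R 4.3.3). Proliferating libraries, and all 24 together, were fitted with limma-voom (limma 3.58.1) with litter as a random term (within-litter correlation 0.287 in proliferating NSPCs), and differentiating libraries with limma-trend and library quality weights. Both used robust empirical Bayes and a Benjamini-Hochberg FDR under 0.05 over all genes tested. CPM were computed on TMM-scaled totals and RPKM with the gene lengths in the table. edgeR's quasi-likelihood test, DESeq2 1.42.0, other scalings, filters and litter terms, sex as a fixed term and fits without each library were alternatives. Sex as a fixed term and the within-litter values were added after the data were seen. The scripts were tested on simulated data.

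No libraries were duplicates, chi-square divided by its degrees of freedom being at least 5.55 for replicate pairs. Each library came from 1 embryo, and several embryos shared a litter, so p-values measure the spread between these samples. The members, gene lists and tests were chosen with earlier results of these data known. Named genes were all members, and at most 5 called genes of each role of the pathway list by size of change, and for each member the 3 genes of most similar pattern. *Lum* was named after its values were seen.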

Additional observations from a re-analysis of the deposited data

Results flagged for a closer look

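For 3 members the effect of losing both *Kat6a* alleles differed between proliferating and differentiating NSPCs in a test of the difference itself (limma interaction over 24 libraries). The difference of log2 fold-changes was −1.75 for *Id1*, −1.05 for *Id2* and −0.72 for *Id3*. *Id1* was higher in all 4 proliferating Kat6a-/- libraries than in any Kat6a+/+ library, whereas *Id2* and *Id3* were lower in all 4 differentiating ones. The share of all genes separated in this way was not counted in either condition. By Dixon's test at the 95% level, which for 4 libraries asks for a gap spanning most of the group's range, no single library was an outlier in 45 combinations of member and group, which does not cover groups that split, such as *Id4* in differentiating Kat6a-/- NSPCs.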

How the results depend on the processing

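Of 8 members in differentiating NSPCs, 6 were called between Kat6a-/- and Kat6a+/+, but 3 with edgeR, 3 with DESeq2, 3 with equal weights and 2 with litter as a fixed term, and from 0 to 9 when 1 library was left out. In 9 of those 12 fits a ninth member, *Msx1*, passed the filter. Between Kat6a-/- and Kat6a+/- the 4 became 1 with edgeR, 1 with DESeq2, 1 with equal weights, 1 with sex as a fixed term and 0 with litter as a fixed term, and 0 to 7 without 1 library. In proliferating NSPCs the 2 members became 1 with litter as a fixed term (2 to 3 without 1 library), and the 0 between Kat6a-/- and Kat6a+/- became 1 (0 to 2). The 3 interaction calls became 5 with DESeq2 and 5 with quality weights in voom (3 to 5), the 8 calls between conditions ran from 8 to 9 (*Msx1* entered 21 of 24 fits), and Kat6a+/- against Kat6a+/+ gave 0 to 0. *Smad7* in differentiating NSPCs reversed to −0.05 without Kat6a-/- replicate 1 and to −0.14 without replicate 3. Its log2 fold-change ran from −0.14 to 0.77 over all fits without 1 library. The cause of these changes was not tested. Over all genes, the 7258 calls in differentiating NSPCs became 3244 with edgeR, 4076 with DESeq2, 3097 with equal weights, 1785 with litter as a fixed term, and 1212, 9505 and 939 without Kat6a-/- replicates 1, 2 and 3.

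Replicate numbers were not used as pairs in the main fits. Correlations of same-numbered deviations ran from −0.483 to 0.545, the highest of them within a litter. By the labels, some same-numbered libraries of different conditions came from the same embryo. With a replicate block 2 members were called in proliferating and 6 in differentiating NSPCs, 8 between conditions and 3 in the interaction, and the block changed no count of member calls. *Id4* in proliferating NSPCs and *Smad6*, *Bmp4* and *Msx1* rest on few reads, which limits what could be detected.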
